A study of Arabidopsis thaliana with 8 samples.

Results

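The CVL39 selected populations were described here by the cytosines at which each of them differed in DNA methylation from the CVL39 ancestor. CVL39 is a recombinant inbred line of Arabidopsis thaliana, a mosaic of the accessions Ler and Cvi. Populations D1, D5 and D6 had each passed through 5 generations of selection in a separate dynamic landscape and then 2 generations without selection, whereas the ancestral plants had not been selected. Each sample was a pool of DNA from 4 plants aged 25 days (whole above-ground tissue), and 1 ancestral pool stood behind all 3 lists. All nuclear positions of these lists that fell on a cytosine of the TAIR10 genome were taken as differentially methylated cytosines (DMCs), which gave 36630 DMCs at 31311 distinct cytosines. Over the whole series, which also holds 3 lists of the line CVL125 (same cross, same landscapes, its own ancestral pool), there were 70564 DMCs at 58128 distinct cytosines.

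In plants, methyl groups are placed on cytosines in CG, CHG and CHH contexts (H being A, C or T). MET1 copies CG methylation onto the new strand after replication, CMT3 maintains CHG methylation, and CMT2 and the RNA-directed DNA methylation (RdDM) pathway with DRM2 maintain CHH methylation. CG methylation is found in the exons of many active genes and in silenced repeats, whereas CHG and CHH methylation is mostly found in silenced repeats, which are dense around the centromeres.

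The sites that the 3 populations had in common are shown first, because the question of the comparison was which differences recurred. For genes described further on, 29 bases of the TAIR10 sequence (RefSeq) around such sites are printed 5′ to 3′ on the strand of the listed cytosine, and capitals mark cytosines that were listed in D1, D5 and D6 alike.
ATCSLA09, chr5:990432-990460, minus strand: tcatcttctCcttCtCCacCtttcattat
SPPL2, chr1:23619278-23619306, plus strand: ttgtggaaCggggcaactgtCggttcaca
SPPL2, chr1:23621602-23621630, minus strand: gcaagaacaaatgcCgggaaagctatact
AT4G27400, chr4:13706602-13706630, plus strand: gcgtcttcCggctatggactCgtctgcag
PHYA, chr1:3097599-3097627, minus strand: gagatggggaggtgCgaagcatgatccag
ZTL, chr5:23244156-23244184, plus strand: ttgtgggaggaacaCgagcgatagtgcta
TIC, chr3:7918683-7918711, minus strand: tggatctgaagtggCggtgacagctcccg
CLSY1, chr3:14758987-14759015, minus strand: gattcagccggattCgaaggatggatggg
CLSY1, chr3:14759199-14759227, minus strand: acggatgaagattgCgaaggctctagtag
SMXL6, chr1:2209576-2209604, minus strand: agcaagttctcagCgCgagaagctggaaa
The marked cytosines of SPPL2, AT4G27400, PHYA, ZTL, TIC, CLSY1 and SMXL6 are all followed by G. Those of ATCSLA09 are CHH cytosines.

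The lists hold a position, a strand and an unadjusted p-value of the authors for each cytosine, and neither reads, methylation levels nor the direction of the change. The study describes its SOLiD bisulfite data as a pilot of low coverage, and it took its own DMCs from separate Illumina data. The depth behind a single DMC is not given in the lists, and a gene with no DMC may have been methylated equally or read too little. D1 had 11266 DMCs, D5 had 12614 and D6 had 12750. The plus strand held 5641, 6297 and 6418 of them, and the minus strand 5625, 6317 and 6332. The median p-value was 0.0256 in D1, 0.0242 in D5 and 0.0239 in D6. In the contrast line, CVL125 D6 stood apart with 7297 DMCs, whereas its D1 and D5 had 12563 and 14074.

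Cytosines in the CG context were the ones most often listed. D1 listed 0.0263% of all reference cytosines, D5 0.0294% and D6 0.0297%. For CG cytosines the share was 0.0883% in D1, 0.105% in D5 and 0.106% in D6. It was lower in CHG, at 0.0382%, 0.0398% and 0.0426%, and lowest in CHH, at 0.0129%, 0.0139% and 0.0136%. Each list thus kept the same order of contexts. CG made up 43.7% of the DMCs of D1 (exact Clopper-Pearson 95% interval 42.7% to 44.6%, counting error only), 46.5% of those of D5 (45.6% to 47.4%) and 46.4% of those of D6 (45.5% to 47.3%).

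The contexts lay in different parts of the genome. Of the CG DMCs, 70.1% in D1, 71.4% in D5 and 70.4% in D6 fell on coding sequence (CDS) of protein-coding genes, which holds 41.0% of reference CG cytosines. Untranslated regions took 2.04% ± 0.129 of CG DMCs (SD, n = 3 populations), with 9.51% of reference CG cytosines there. The 1 kb upstream of genes took 1.98% ± 0.165, with 10.5% of the reference. Introns held 5.80% ± 0.231, with 8.53% of the reference, so that CDS was the only one of the 8 sequence classes whose mean over populations was above its reference share. CHG DMCs showed another placement. Genes annotated as pseudogenes (this annotation has no class for transposons) held 56.8%, 55.0% and 56.3% of CHG DMCs in D1, D5 and D6, and 10.99% of reference CHG cytosines. For CHH DMCs the pseudogene share was 44.6%, 42.3% and 44.0%, with 9.72% of the reference. Intergenic sequence beyond 1 kb from genes held 22.2% ± 0.355 of CHG DMCs and 26.8% ± 0.797 of CHH DMCs, with 10.8% and 15.4% of the reference. In each of these shares the 3 populations differed by under 3 percentage points.

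**Figure D1:**
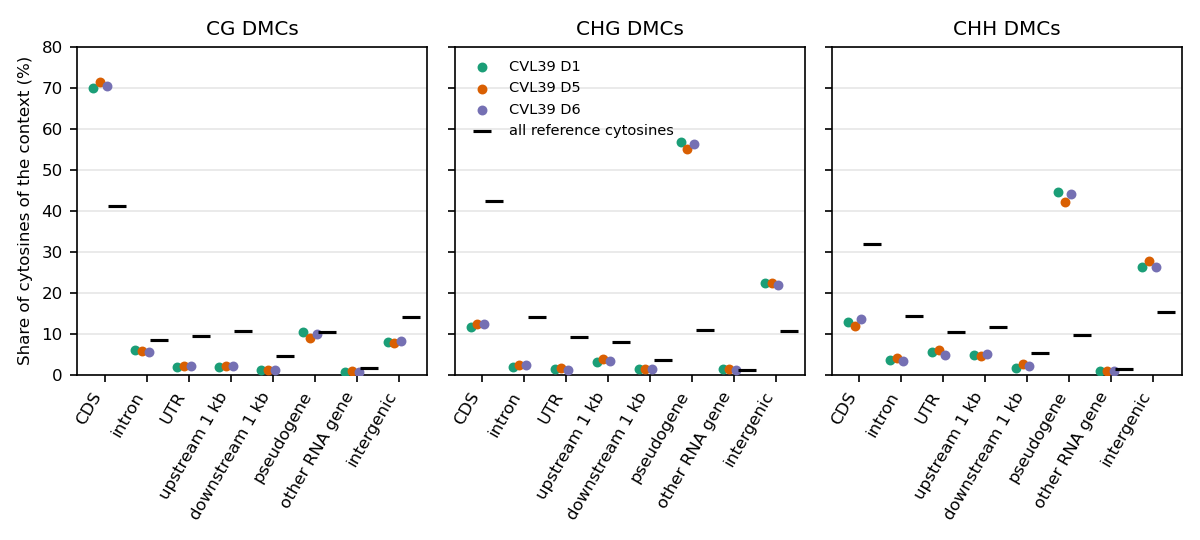
Share of DMCs (y axis, percent of the DMCs of a context) in each class of annotated sequence (x axis) for CG, CHG and CHH, with 1 point per CVL39 population and a black dash for all reference cytosines of that context. The points of D1, D5 and D6 nearly coincide, with CG DMCs at 70.1% to 71.4% in CDS and CHG DMCs at 55.0% to 56.8% in pseudogenes.

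The lines overlapped in the share of DMCs in pseudogenes. Their share was 30.7% ± 1.48 of all CVL39 DMCs and 28.2% ± 5.80 of all CVL125 DMCs (SD, n = 3 populations each), a difference of 2.44 percentage points that was smaller than the spread of CVL125 (two-sided exact permutation test over populations, p = 0.5, adjusted p = 0.933 over 14 comparisons). It was 5.72 points without CVL125 D6, whose share of 34.8% was the highest of all lists, 1.35 without CVL125 D1, 0.243 without CVL125 D5 and 0.825 without CT runs.

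Within CHH, the listed cytosines were not an even sample of the 9 trinucleotides. Outside CT runs (4 or more CT dinucleotides in a row on either strand), CAA made up 32.1%, 32.4% and 31.9% of the CHH DMCs of D1, D5 and D6, whereas it makes up 18.1% of reference CHH cytosines. CTA made up 19.1%, 18.8% and 18.4%, with 10.02% of the reference. CAA and CTA are the trinucleotides that CMT2 is known to methylate most. The 3 trinucleotides beginning with CC were below the reference, with CCC at 2.16% ± 0.128 (reference 4.26%) and CCT at 3.57% ± 0.215 (reference 7.78%). In CVL125, CAA made up 30.5% ± 1.43 and CTA 18.5% ± 0.744 of CHH DMCs. Among CHG DMCs of CVL39, CCG made up 16.8% ± 1.04, with 19.2% of the reference, and CAG and CTG were near their reference shares.

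Along protein-coding genes, CG DMCs were shifted towards the 3′ end. Beyond the midpoint of the gene body lay 68.3% of them in D1, 69.2% in D5 and 69.0% in D6, and 45.9% of the reference CG cytosines in gene bodies. With each gene cut into deciles, the first from the 5′ end held 1.69%, 1.46% and 1.62% of the gene-body CG DMCs, with 13.2% of reference CG cytosines, and the ninth held 17.4%, 17.8% and 18.1%, with 9.78%. The last decile was again lower, at 6.64%, 6.75% and 6.44%, with 7.52% of the reference. CVL39 and CVL125 overlapped here, with 68.9% ± 0.461 and 69.4% ± 1.02 beyond the midpoint (SD, n = 3 each; exact permutation p = 0.5, adjusted p = 0.933). Among DMCs with a p-value of at most 0.005 the lists did not overlap, with 70.3% in CVL39 and 72.0% in CVL125 (exact permutation p = 0.1). Over all DMCs the difference was -0.501 percentage points. With each population left out in turn, it lay between -1.05 without CVL125 D6 and -0.0408 without CVL125 D1.

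**Figure D2:**
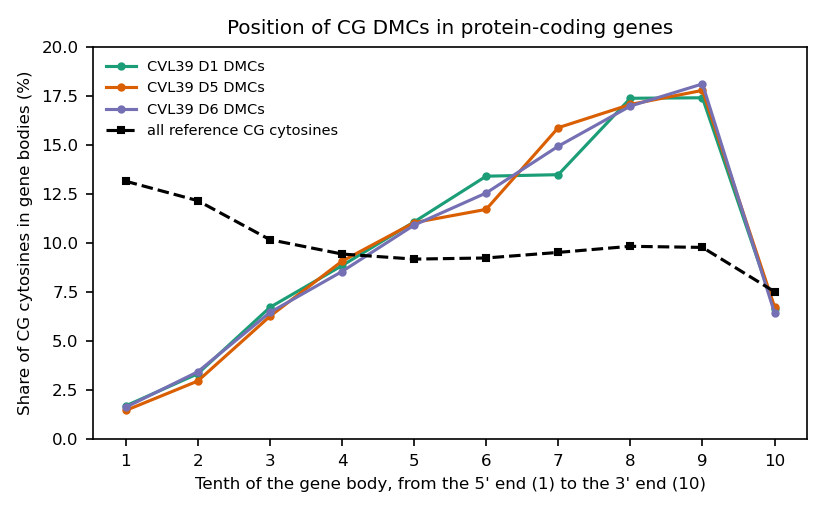
Share of gene-body CG DMCs (y axis, percent) in each decile of protein-coding genes from the 5′ to the 3′ end (x axis), with a line per CVL39 population and a dashed line for all reference CG cytosines. The 3 populations rise together to 17.4% to 18.1% in the ninth decile, where the reference is at 9.78%.

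The chromosomes were divided into 240 windows of 500 kb, and the 41 windows in which protein-coding gene bodies cover under 30% of bases were called gene-poor. Most lie around the centromeres, from 11000001 to 16000000 on chromosome 3 for example, and 1 on chromosome 4, from 1500001 to 2000000, lies apart from the rest. Together they hold 17.5% of reference cytosines. CHG DMCs were concentrated there, at 67.7%, 67.6% and 67.8% in D1, D5 and D6, with 16.5% of reference CHG cytosines. CHH DMCs followed, at 59.8%, 58.6% and 58.2%, with 17.7% of the reference. CG DMCs were not concentrated there, at 17.9%, 17.0% and 17.5%, with 17.6% of the reference. CVL39 and CVL125 lists overlapped in all 3 contexts at the limit of 30%. With a limit of 20% they did not overlap in CHG, with a difference of 2.90 percentage points, or in CHH, with 7.85 (exact permutation p = 0.1 for each, the smallest that 3 against 3 allows). The widest difference was in CHH, where CVL39 had 58.9% ± 0.824 and CVL125 53.0% ± 4.88 (SD over 3 populations each, exact permutation p = 0.3, adjusted p = 0.933). Leaving CT runs out reduced this difference to 2.17 percentage points, whereas it was 10.8 among DMCs with a p-value of at most 0.005 and 8.68 without CVL125 D6. Among DMCs with a p-value of at most 0.005, the gene-poor share over all contexts was 26.3% in CVL39 and 27.1% in CVL125, whereas it was 41.8% ± 1.16 and 40.2% ± 6.39 over all DMCs. By context, the shares at that limit in CVL39 and CVL125 were 10.5% and 9.87% for CG and 65.6% and 63.6% for CHG. For CHH they were 55.3% and 44.5%.

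The richest windows were shared by the populations. The window of chromosome 4 from 3500001 to 4000000 held 313 DMCs in D1, 285 in D5 and 279 in D6, whereas the median window held 31.5, 39 and 38. It was also the richest window of CVL125 D1, D5 and D6, with 251, 265 and 217. It contains 9 protein-coding genes and 100 pseudogenes, and its richest gene was the pseudogene AT4G06656. On chromosome 3, the window from 13500001 to 14000000 held 231, 288 and 277 DMCs and the next one, to 14500000, held 256, 246 and 236. CVL125 D1, D5 and D6 had 91, 77 and 55 in the first of these windows and 132, 121 and 91 in the next. In these windows the richest genes were the pseudogenes AT3G33151, with 6, 8 and 6 DMCs, and AT3G42100, with 25, 18 and 20. The window of chromosome 5 from 11500001 to 12000000 was among the richest 3 of D6, with 221, 231 and 256 DMCs in D1, D5 and D6, and its richest gene was the pseudogene AT5G29646 (13, 10 and 7). Rich windows did not contribute many common cytosines: 5 to 12 of the 635 to 770 distinct DMCs of such a window were listed in all 3 populations.

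**Figure D3:**
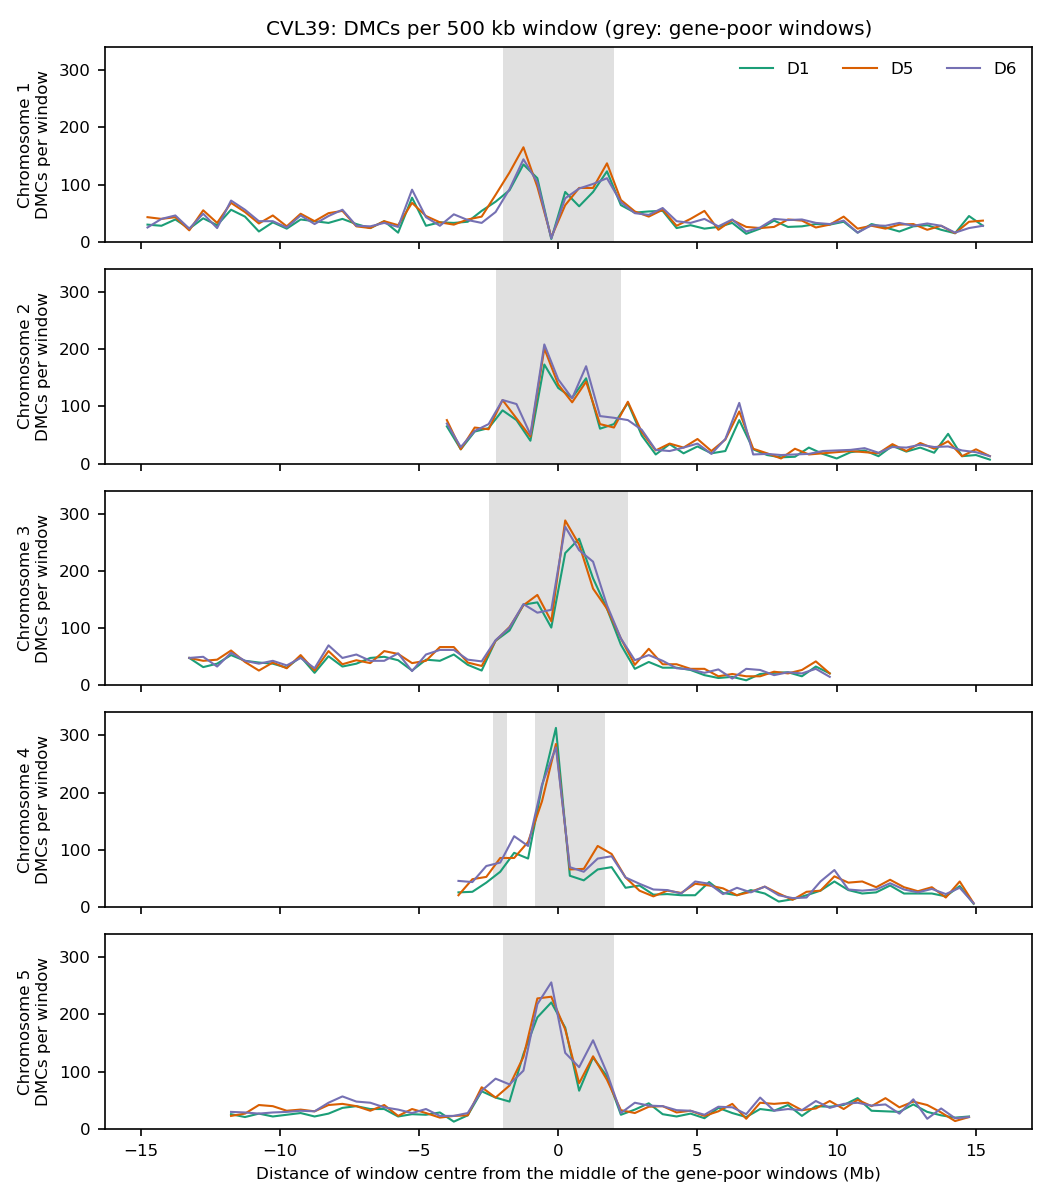
Number of DMCs per 500 kb window (y axis) in D1, D5 and D6 of CVL39, by distance of the window from the middle of the gene-poor windows of its chromosome (x axis, Mb), with a panel per chromosome and gene-poor windows in grey. The 3 lines follow each other, and the highest points, 313, 285 and 279, lie in the gene-poor part of chromosome 4.

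CVL39 and CVL125 lists separated on 3 chromosomes. Chromosome 3 held 23.8%, 23.3% and 23.4% of the DMCs in CVL39 D1, D5 and D6, and 22.2%, 22.2% and 22.1% in CVL125 D1, D5 and D6. Chromosome 5 held 22.0%, 22.0% and 22.4% in CVL39 and 21.2%, 21.3% and 21.3% in CVL125. Chromosome 2 was the lower one in CVL39, at 16.4%, 16.1% and 16.5%, against 19.1%, 17.7% and 18.5% in CVL125. For each of these the lists did not overlap (exact permutation p = 0.1, the smallest that 3 against 3 allows, adjusted p = 0.467 over 14 comparisons), so none passed the test. On chromosome 2, the window from 17500001 to 18000000 held 19, 26 and 29 DMCs in CVL39 D1, D5 and D6, against 111, 108 and 26 in CVL125. The next one, to 18500000, held 52, 39 and 30 against 160, 180 and 33. The study describes a Ler/Cvi heterozygous region on chromosome 2 of CVL125, and its part in this difference was not tested. Outside gene-poor windows, an alternative added after the data were seen, the direction on chromosome 3 was the opposite, with 19.3%, 19.3% and 19.4% in CVL39 and 21.4%, 21.3% and 20.4% in CVL125 (exact permutation p = 0.1). It was also the opposite among DMCs with a p-value of at most 0.005, with 22.7% in CVL39 and 23.1% in CVL125. Chromosome 1, where the lists overlapped at 21.9% ± 0.565 in CVL39 and 21.6% ± 0.795 in CVL125, separated outside gene-poor windows, with 27.2% and 25.0% (exact permutation p = 0.1), and the difference on chromosome 5 there was 2.24 percentage points. Without CT runs the difference on chromosome 5 was 0.358. The gene-poor windows of chromosome 3 held 288, 301.8 and 306.4 DMCs per Mb in CVL39 D1, D5 and D6, against 223.8, 237.8 and 165.4 in CVL125. Each line has its own ancestral pool, so that line and ancestral pool cannot be told apart in any of these comparisons.

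CG and CHG sites are symmetric, and each has a partner cytosine on the opposite strand. The partner of a CG DMC was listed with it in 124 of 4919 cases in D1 (2.52%), 202 of 5867 in D5 (3.44%) and 214 of 5918 in D6 (3.62%). These shares were above the 0.0883%, 0.105% and 0.106% of all reference CG cytosines that the lists hold. That background may include cytosines that were unmethylated or read too little to be listed. For CHG DMCs the partner was listed in 8, 15 and 4 cases, which is 0.344%, 0.619% and 0.154%. CVL39 and CVL125 did not differ beyond the spread of populations, at 3.19% ± 0.589 and 3.11% ± 1.58 for CG (SD, n = 3 each; exact permutation p = 1, adjusted p = 1). The same cytosine recurred in another population far more often than its partner: of the CG DMCs of D1, 1238 (25.2%) were also listed in D6, whereas the partners of 144 (2.93%) were. D1 and D6 share the ancestral pool, so recurrence of the same cytosine rests in part on the same ancestral data. The part of this in the contrast with partners was not tested. Neighbouring DMCs also kept to a strand. Among neighbouring CHH DMCs with at most 50 bp between them and no CT run, 884 pairs in D1 shared the strand and 66 did not, with 1084 and 80 in D5, and 1153 and 91 in D6. Of CG pairs at that distance, 81.2%, 75.6% and 75.7% were on the same strand. The lists hold no reads, so whether neighbouring DMCs came from the same reads was not tested.

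Most DMCs were found in a single population. Of the 31311 distinct cytosines, 26740 (85.4%) were listed once, 3823 (12.2%) in a pair of populations and 748 (2.39%) in all 3. These 748 are 6.64% of the DMCs of D1, 5.93% of those of D5 and 5.87% of those of D6. The lists share the ancestral pool and are not independent, so agreement is given as a count with no test.

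Agreement was highest in CG and in coding sequence. Of the CG DMCs, 60.9% in D1, 64.8% in D5 and 64.9% in D6 were in no other list, whereas it was 80.02%, 80.1% and 81.5% of the CHH DMCs. In D1, 10.96% of the CG DMCs, 2.54% of the CHG DMCs and 3.73% of the CHH DMCs were in both other lists. Among distinct CG cytosines, 4.76% of the 10258 in protein-coding gene bodies were in all 3 lists, 1.11% of the 1442 in pseudogenes and 2.06% of the 1703 elsewhere. CHG cytosines were in all 3 lists in 1.07% of cases in protein-coding gene bodies and in 0.780% in pseudogenes. Gene-poor windows, for all contexts, had 1.27% of their distinct DMCs in all 3 lists, and the other windows 3.26%. By chromosome the share lay between 2.01% on chromosome 2 and 3.03% on chromosome 1.

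**Figure D4:**
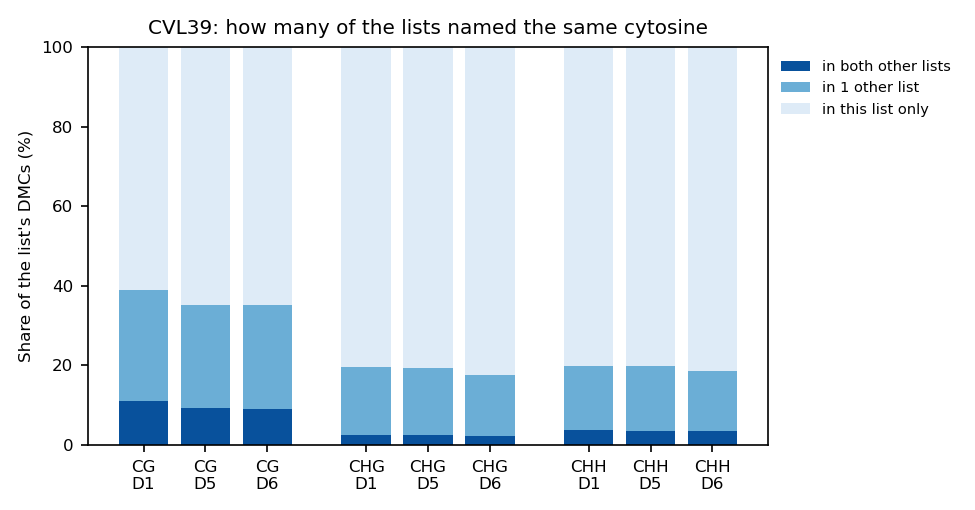
Share of the DMCs of each CVL39 list (y axis, percent) that were in both other lists, in 1 other list or in no other list, for CG, CHG and CHH and for D1, D5 and D6 (x axis). CG bars show the largest part in both other lists, 10.96% in D1, whereas CHG and CHH bars show 2.27% to 3.73%.

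Cytosines with smaller p-values recurred more. Of the 1823 DMCs of D1 with a p-value of at most 0.005, 16.8% were in both other lists, and of the other 9443 it was 4.67%. In D5 these shares were 15.3% and 3.96%, and in D6 13.2% and 4.19%. The median p-value of the 748 common cytosines was 0.00794 in each list, whereas that of cytosines found in no other list was 0.0286 in D1, 0.0278 in D5 and 0.0275 in D6. A p-value here measures reads and difference together, and its dependence on depth was not tested.

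Cytosines listed in CVL39 were listed in CVL125 more often than reference cytosines were. Reference cytosines may include many that were unmethylated or read too little to be listed in any population, which the lists do not show. CVL125 D1, D5 and D6 held 12563, 14074 and 7297 of the 42859516 reference cytosines. Of the 748 common cytosines, 42 (5.61%) were also listed in a CVL125 population. Of those found in 1 CVL39 population, 1113 of 26740 (4.16%) were. Outside CT runs these shares were 3.71% and 3.45%.

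DMCs were found in the bodies of 3559 of 27444 protein-coding genes in D1 (13.0%), 4084 in D5 (14.9%) and 4155 in D6 (15.1%), and in 7178 genes (26.2%) in any of them. All 3 lists hit 1222 protein-coding genes (4.45%). Of these, 502 (1.83% of all) held at least 1 cytosine that all lists named, whereas the other 720 held none that all 3 lists named. By context, 996 protein-coding genes had a CG DMC in each list, 41 a CHG DMC and 108 a CHH DMC. Of the 4843 pseudogenes, 2150 (44.4%) were hit in any list and 760 (15.7%) were hit in all 3 lists, 87 of them (1.80% of all pseudogenes) at a common cytosine. Other RNA genes were hit least, with 326 of 5612 (5.81%) in any list, 56 (0.998%) in all 3 and 27 (0.481%) at a common cytosine. Over all 37899 genes, 2038 (5.38%) were hit in all 3 lists and 616 (1.63%) at a common cytosine. Among pseudogenes, 367 were hit in CHH in all lists, 294 in CHG and 88 in CG. These counts are not per cytosine: CHH makes up 72.8% of reference cytosines, CHG 14.2% and CG 13.0%.

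Longer genes were hit more often. The median length was 3447.5 bp for protein-coding genes hit in all 3 lists and 2078 bp for all protein-coding genes. Of the 6857 longest genes, from 3031 bp upwards, 10.8% were hit in all 3 lists, and of the 6864 shortest, up to 1323 bp, 0.932%. In families picked after the values were seen, 32 of 285 genes for pentatricopeptide repeat proteins, which bind organellar RNA, were hit in all lists (11.2%, median length 2272 bp) and 15 held a common cytosine (5.26%). Leucine-rich repeat receptor kinases had 25 of 190 hit (13.2%, median length 3807 bp) and helicases 17 of 138 (12.3%, median length 4416 bp). ARM repeat genes had 14 of 128 hit (10.9%, median length 3702.5 bp). Disease resistance genes had 14 of 223 hit (6.28%) at a median length of 3605 bp. F-box genes, which are short (median length 1394 bp), had 17 of 685 hit (2.48%). The part of gene length in these shares was not tested.

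ATCSLA09 (AT5G03760, chromosome 5, 985622 to 990630, minus strand), a cellulose synthase-like gene whose enzyme makes mannans of the cell wall, held more cytosines common to the 3 lists than any other gene, CT runs left out. It had 5 DMCs in D1, 7 in D5 and 6 in D6, and 0 in each CVL125 list. A pick on common CVL39 cytosines favours genes that are higher in CVL39. All 7 distinct DMCs were CHH cytosines of the minus strand between 990441 and 990453, in an untranslated region, and 5 of them were in all 3 lists. At 990445 the p-value was 0.00453 in D1, 2.55e-05 in D5 and 0.000458 in D6. The whole signal of the gene thus came from 13 bp of a strand, printed above. The printed stretch is mostly C and T, although it holds no CT run by the rule used here.

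SPPL2 (AT1G63690, chromosome 1, 23618012 to 23622396), a signal peptide peptidase-like protease, held 3 common CG cytosines. It had 3, 3 and 4 DMCs in D1, D5 and D6, and 1, 2 and 0 in CVL125 D1, D5 and D6. The cytosines at 23619286 and 23619298 lie in CDS on the plus strand, and the one at 23621616 lies in an intron on the minus strand. At 23619286 the p-value was 0.00129 in D1, 0.00129 in D5 and 1.22e-06 in D6. AT4G27400 (chromosome 4, 13705267 to 13706843), annotated as a late embryogenesis abundant-like protein, had 6, 5 and 15 DMCs, and 1, 1 and 0 in CVL125. Of its 19 distinct DMCs, 12 were CG cytosines, all 19 lay in CDS, and 2 CG cytosines, 13706610 and 13706622, were in all lists. D6 was higher than the other populations in this gene, and every CVL39 list was above every CVL125 list. The pick on common CVL39 cytosines favours this pattern. AT2G36810 (chromosome 2, 15425321 to 15439642), an ARM repeat protein gene, had 10, 6 and 5 DMCs, within the range of CVL125, where it had 7, 9 and 6.

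The other 6 of the 10 genes ranked by cytosines common to the 3 lists were annotated as pseudogenes. Ties, here among genes with 2 common cytosines, went to those with more distinct DMCs. With CT runs counted, 54 genes held 2 or more common cytosines. These included 42 of 27444 protein-coding genes and 9 of 4843 pseudogenes. AT2G04130 had 13, 12 and 11 DMCs in D1, D5 and D6, and 10, 4 and 8 in CVL125 D1, D5 and D6. Its 4 common cytosines were all CHH. AT3G32240, AT3G32230 and AT3G31980, between 12972404 and 13212216 on chromosome 3, had 3, 2 and 2 common cytosines out of 45, 43 and 40 distinct ones. AT4G08078 had 2 of 21, adjacent CHH cytosines at 4963411 and 4963412. AT5G43800 had fewer DMCs than in CVL125, with 7, 5 and 8 against 15, 21 and 14.

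Genes with many DMCs in each population were, with 1 exception, also pseudogenes. AT1G10160 (chromosome 1, 3328971 to 3333470) was at the top with 21 DMCs in D1, 31 in D5 and 30 in D6, and had 6, 3 and 5 in CVL125 D1, D5 and D6. Its 74 distinct DMCs were 57 CHH, 13 CHG and 4 CG cytosines on both strands, and none was in all 3 lists, although 8 were in a pair of them. AT4G06656 had 20, 25 and 23 DMCs, and 9, 10 and 12 in CVL125. AT3G42100 had 25, 18 and 20, against 29, 36 and 28 in CVL125. The lines did not overlap in AT1G10160, AT4G06656 or AT3G42100, and AT3G42100 was the one with fewer DMCs in CVL39. The pick on high CVL39 counts favours genes that are higher in CVL39. Over all 37899 genes, 1.79% were higher in every CVL39 list and 1.19% in every CVL125 list. The exception was GLR2.3 (AT2G24710, chromosome 2, 10516780 to 10520684), a glutamate receptor-like channel gene. It had 25 DMCs in D1, 16 in D5 and 15 in D6, and 20, 19 and 10 in CVL125. Of its 52 distinct DMCs, 50 lay in CDS and 29 were CHH, 16 CHG and 7 CG, and none was in all 3 lists. Besides AT3G32240 and AT3G32230, the others were AT5G26345, AT1G51175, AT5G34851 and AT4G09425, with 15 to 25 DMCs per CVL39 list and overlapping counts in CVL125.

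**Figure D5:**
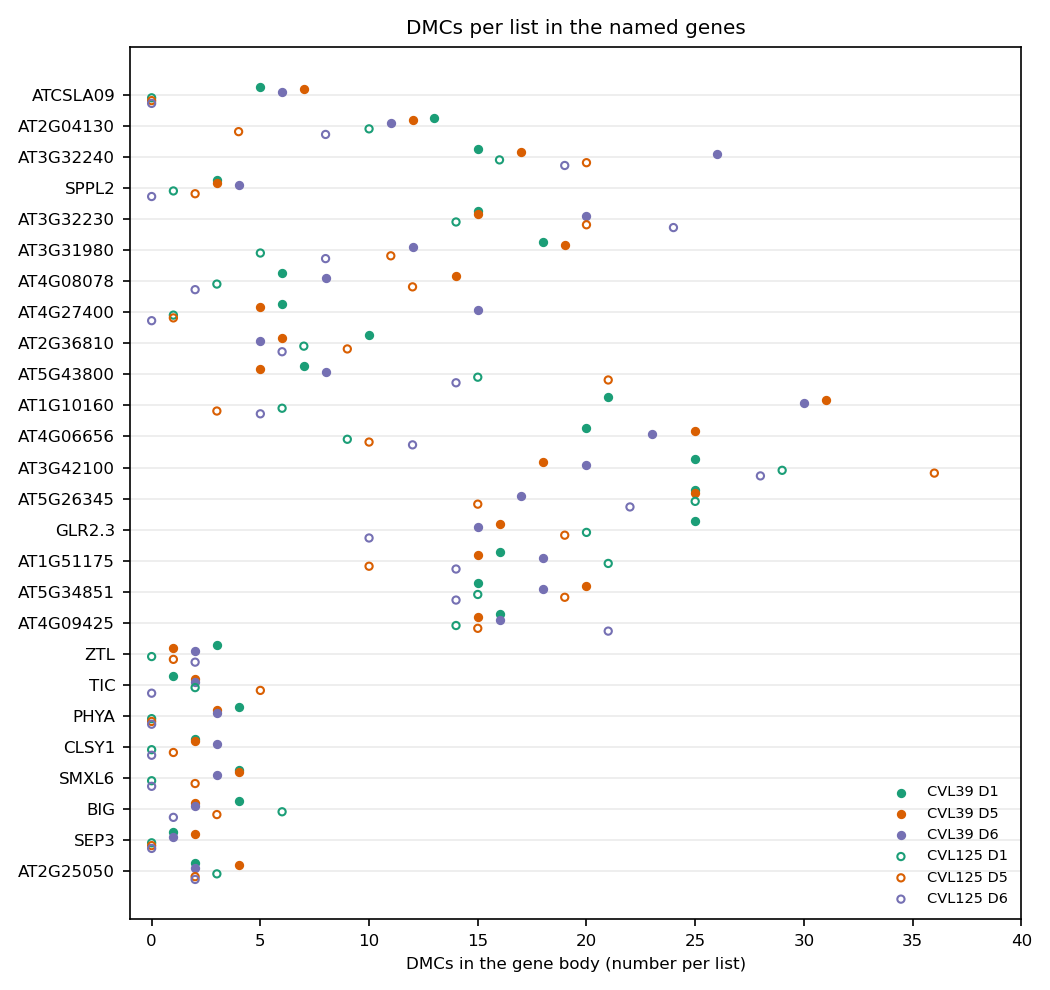
Number of DMCs per list (x axis) in the genes with the most cytosines common to D1, D5 and D6, the genes with many DMCs in each population and the named members of the gene lists (y axis), with filled points for CVL39 above open points for CVL125. AT1G10160 stands at 21 to 31 in CVL39 and at 3 to 6 in CVL125, whereas ATCSLA09 and PHYA stand at 0 in each CVL125 list. The genes were picked on CVL39 values, which favours higher counts in CVL39.

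Of all 37899 annotated genes, 679 (1.79%) had more DMCs in every CVL39 list than in any CVL125 list, and 452 (1.19%) had more in every CVL125 list. CVL125 D6, with 7297 DMCs the shortest list, had to exceed every CVL39 list for the reverse pattern, so the counts of the 2 directions are not comparable, here or below. Among protein-coding genes these were 467 (1.70%) and 335 (1.22%), among pseudogenes 185 (3.82%) and 105 (2.17%), and among other RNA genes 27 (0.481%) and 12 (0.214%). The stricter pattern of 3 or more DMCs in each CVL39 list and none in CVL125, chosen after the values were seen, was met by 21 genes, 9 of them protein-coding, and the reverse by 13 genes, 4 of them protein-coding. The richest was AT2G15420 (chromosome 2, 6723948 to 6728183), annotated as myosin heavy chain-like, with 10, 14 and 11 DMCs, of which none was in all lists. The pseudogene AT2G15410, beside it on the chromosome (6717778 to 6723519), had 11, 5 and 5. AT3G43470, a zinc ion binding protein gene by annotation, had 6, 9 and 9. DDB1B (AT4G21100), a damaged DNA binding protein, had 4, 3 and 4 DMCs, all 6 distinct ones CG cytosines in CDS and 2 of them in all lists. EMB2217 (AT1G79490) and AT2G41080, are both pentatricopeptide repeat genes. EMB2217 had 4, 3 and 4 DMCs and AT2G41080 had 3 in each list, all of them CG cytosines in CDS. A gene without DMC in CVL125 may have been read too little there, which the lists do not show.

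Some protein-coding genes were hit mostly in 1 population. These were also chosen after their values were seen. AT2G43800, an actin-binding formin gene, had 21 DMCs in D1, 2 in D5 and 1 in D6, and 15, 16 and 0 in CVL125 D1, D5 and D6. Of its 23 distinct DMCs, 20 lay in CT runs. AT3G05320, an O-fucosyltransferase family gene, had 0, 14 and 2, against 18, 20 and 1 in CVL125, with 14 of 15 distinct DMCs in CT runs. SQN (AT2G15790), a cyclophilin, had 12, 2 and 0, against 5, 5 and 0 in CVL125, with 11 of 13 in CT runs. These 3 genes were thus hit almost wholly in simple repeats. AT5G47540, a Mo25 family gene, had 0, 0 and 13, against 0, 7 and 0 in CVL125, and none in CT runs. All 13 were CHH cytosines of an untranslated region on the minus strand, between 19283113 and 19283149. Joined over gaps of up to 100 bp, the DMCs of the 3 lists formed 21729 groups, of which 16225 were single cytosines and 460 held at least 5 distinct ones. Of these 460, 272 had DMCs of all 3 populations, 138 of a pair and 50 of 1. Those on a single strand numbered 73 of the 272 and 43 of the 50.

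Of the 45 genes of DNA methylation and silencing, 14 had a DMC in D1, 13 in D5 and 16 in D6, 6 had one in all 3 (13.3%, median length of the list 4832 bp) and 21 had none. Over all protein-coding genes 4.45% were hit in all 3, and 20266 of 27444 had no DMC. CLSY1 (AT3G42670, chromosome 3, 14755798 to 14760629), a chromatin remodeller that brings RNA polymerase IV to RdDM targets, had 2, 2 and 3 DMCs, and 0, 1 and 0 in CVL125. Its CG cytosine at 14759001 had p-values of 4.11e-05 in D1, 1.08e-05 in D5 and 8.74e-05 in D6, and the one at 14759213 had 0.00699, 0.00337 and 0.00300. VIM1, which binds hemimethylated CG sites, had 2, 2 and 1 DMCs, IBM1, a histone demethylase that keeps genes free of CHG methylation, 2, 1 and 1, and SUVH6, a histone methyltransferase, 1, 2 and 1. NRPD1, the large subunit of RNA polymerase IV, and the silencing ATPase MORC6 had 1 in each list. These 5 held no common cytosine. Of the methyltransferases, MET1 had 0, 0 and 1, CMT2 0, 1 and 0, DRM2 1, 0 and 0, and CMT3 0 in each.

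Of 29 clock and photoreceptor genes, 4 were hit in all 3 lists (13.8%, median length 3445 bp) and 3 of them held a common cytosine. PHYA (AT1G09570, chromosome 1, 3095160 to 3100819), the far-red light receptor phytochrome A, had 4, 3 and 3 DMCs in D1, D5 and D6, and 0 in each CVL125 list. Being named for its CVL39 values favours this pattern. All 6 distinct DMCs were CG cytosines in CDS, between 3096374 and 3099160. The common one, at 3097613, had p-values of 0.000583, 0.00126 and 0.000583. ZTL (AT5G57360), a blue light receptor that marks clock proteins for degradation, had 3, 1 and 2 DMCs, and 0, 1 and 2 in CVL125. TIC (AT3G22380), a clock regulator, had 1, 2 and 2, and 2, 5 and 0 in CVL125. Its common CG cytosine at 7918697 had a p-value of 0.00699 in D1, 0.00202 in D5 and 3.18e-09 in D6. PHYD had 1, 2 and 4 DMCs and no common cytosine. CCA1, a core clock factor, had none, and LHY, its partner, had 1 in D1.

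Of 62 flowering time genes, 5 were hit in all 3 lists (8.06%, median length 3908 bp), none at a common cytosine, and 35 had no DMC. Of all 27444 protein-coding genes, 4.45% were hit in all 3 lists, 1.83% held a common cytosine and 20266 had no DMC. CO (AT5G15840), which promotes flowering in long days, had 1, 1 and 2 DMCs at 4 distinct CG cytosines, and 1, 2 and 0 in CVL125. FPA (AT2G43410), an RNA-binding repressor of FLC, had 1, 1 and 3, and 4, 7 and 1 in CVL125. FCA, another RNA-binding protein of that pathway, had 1 in each CVL39 list and VRN1, a DNA-binding protein of the vernalization response, 1 in each list of both lines. MED25, a subunit of the Mediator complex, had 1, 3 and 1, and 0 in each CVL125 list. GI had 0, 2 and 2. FT, FRI and AP1 had no DMC in CVL39. Near FIP1 (0, 0 and 2 DMCs), the non-coding RNA gene AT2G06002 had none and its other neighbour AT2G06000 had 1, 0 and 1. AT2G25050, a formin gene on chromosome 2, had 2, 4 and 2 DMCs, and 3, 2 and 2 in CVL125, at 8 distinct cytosines of which 6 were CHG and none recurred.

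Of 37 genes of shoot branching and the meristem, 3 were hit in all 3 lists (8.11%, median length 3461 bp). SMXL6 (AT1G07200, chromosome 1, 2208477 to 2212718), a repressor in strigolactone signalling, had 4, 4 and 3 DMCs, and 0, 2 and 0 in CVL125. Its 7 distinct DMCs were CG cytosines in CDS. The common ones, 2209589 and 2209591, lie 2 bases apart in the printed sequence, and the first had p-values of 0.000155, 0.000333 and 0.000333. BIG, which acts in auxin transport, had 4, 2 and 2, and 6, 3 and 1 in CVL125, and REV, a meristem transcription factor, had 1, 2 and 1. Of 14 genes of fruit opening and seed release, 1 was hit in all lists. This was SEP3, a MADS-box gene of floral organ identity, with 1, 2 and 1 DMCs at CHH cytosines of an untranslated region, the common one inside a CT run, so that outside CT runs no gene of this list was hit in all lists. In the other 4 functional lists the share hit in all 3 populations was between 8.06% and 13.8%, against 4.45% of all protein-coding genes, and the median length was between 3445 and 4832 bp, against 2078 bp.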

How the data were processed

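Members, gene lists and comparisons were chosen with earlier results of these data known. The authors sequenced bisulfite-treated DNA pools on the SOLiD platform, aligned reads with SOCS to Ler and Cvi sequences built from TAIR10, and compared each selected pool with its line's ancestral pool. The deposited p-values are unadjusted and at most 0.05. The test, the coverage minimum and the direction are not given in the sources used here, nor is how reads of near-identical copies were placed. The other deposited columns are chromosome, strand and position. Of the nuclear CVL39 positions, 99.4% to 99.5% matched a cytosine on their strand if counting started at 0, and 13.2% to 13.6% if it started at 1. Printed coordinates are TAIR10, counted from 1.

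Contexts, genes (27444 protein-coding, 4843 pseudogenes, 37899 in all) and sequences came from RefSeq's TAIR10.1 assembly. Sequence classes were exclusive, with coding sequence first and intergenic sequence last. Base differences of Ler and Cvi from TAIR10 were not used here. Lines were compared over populations with two-sided exact permutation tests (scipy 1.17.1), Benjamini-Hochberg adjusted over 14 comparisons. Alternatives were p-values of at most 0.005, no CT runs, other gene-poor limits and windows, 1 kb flanks, each population left out and a landscape block. Statistics were tested on simulated data. Named genes were the 10 with the most cytosines in all 3 lists outside CT runs, the 10 with the highest smallest count over D1, D5 and D6, members of the 6 gene lists (203 entries, all matched by locus) with a common cytosine or at least 2 DMCs per list, genes discussed in the study, and the richest genes of the 3 richest windows per list. The remaining list members hit in all 3 lists were named after their values were seen, and other such genes are marked in the text. Sequences are printed for a selection of the described genes.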

Additional observations from a re-analysis of the deposited data

Results flagged for a closer look

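Positions outside the nuclear cytosines entered no comparison, and each CVL39 list held some. The chloroplast genome had 69 positions in D1, 59 in D5 and 62 in D6. The mitochondrial genome had 49, 36 and 68. Nuclear positions where TAIR10 has another base than cytosine numbered 65, 79 and 62. No sample of unselected plants has a list of its own to set beside these counts. For its Illumina data, the study treated the chloroplast genome as unmethylated when it assessed bisulfite conversion. What put chloroplast positions on these lists was not tested.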

How the results depend on the processing

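With p-values of at most 0.005, 140 cytosines were common to the 3 populations, 191 protein-coding genes were hit in all 3 and 122 held a common cytosine. Matching D1 cytosines to D5 and D6 within 50 bp on the same strand gave 1363 common ones, and 1 kb flanks gave 1874 genes hit in all 3. When a pair of lists had to agree, without each CVL39 population in turn, the counts were 1926 to 2141 cytosines, 1850 to 2086 genes hit and 1065 to 1198 genes with a common cytosine. Some differences between CVL39 and CVL125 changed direction with p-values of at most 0.005. These were the shares in gene-poor windows over all contexts (-0.716 percentage points), of CG partners (-0.447), of CHG partners (0.107), of chromosome 3 (-0.470) and of chromosome 4 (1.98). Within single contexts the gene-poor difference kept its direction, at 0.593 points for CG, 2.00 for CHG and 10.8 for CHH. Outside gene-poor windows, chosen after seeing the data, chromosome 3 gave -1.70. Leaving out each population in turn gave -0.871 to 5.19 percentage points in gene-poor windows (all contexts), -1.25 to 2.62 for CG, -0.443 to 1.74 for CHG, 4.30 to 8.68 for CHH, -0.804 to 0.706 for CG partners, -0.172 to 0.0607 for CHG partners, and -304.5 to 806.5 protein-coding genes with a CG DMC. The lowest values came without CVL125 D5 for gene-poor windows and for CG, without CVL125 D1 for CHG, and without CVL125 D6 for CG partners and for genes, and the highest for CHG partners came without CVL39 D6. With the landscape as a block, since lines share landscape numbers in the labels, an exact sign-flip permutation test of the paired differences gave p = 0.25 on chromosomes 2, 3, 4 and 5, the smallest that 3 pairs allow, and changed no call. None of the alternatives took a comparison between the lines past the threshold, which 3 against 3 cannot reach. The lists give no depth, so neither absence of DMCs nor the small overlap bounds the methylation difference at a site. The cause of these changes was not tested.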
